A study of Mus musculus with 24 samples.

Results

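Livers of Atxn2-CAG42 knock-in (CAG42) mice were compared with livers of wild-type (WT) mice on expression arrays. The comparison holds 8 of the 24 arrays of the series, chosen by the tissue and genotype in the sample labels: 4 CAG42 livers and 4 WT livers. The other 16 arrays hold cerebellum and brainstem of both genotypes. In the CAG42 mice the CAG codon in exon 1 of the endogenous Atxn2 gene was replaced by a run of 42 CAGs, on both alleles as the study uses the name CAG42, so the repeat was expressed from the gene's own promoter in every tissue that uses it. The methods describe embryonic stem cells of another mouse strain, removal of the selection cassette, backcrossing to C57BL/6 for at least 8 generations and WT littermates as controls, with array mice 18 months old. Each array held the liver RNA of a separate mouse, and the sources do not say which founder line or sex was used. Values are RMA log2 intensities, on which a difference of 1 is a 2-fold change and values near 3 are close to the lower end of the array.

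ATXN2, the product of Atxn2, is a cytoplasmic RNA-binding protein that associates with the poly(A)-binding protein PABPC1, and expansion of its polyglutamine tract causes spinocerebellar ataxia type 2. Outside the nervous system it is also made in liver, and mice that lack it become obese and store fat in the liver. Hepatocytes carry most of the body's amino acid breakdown, ketone body production and bile acid synthesis, and they answer to interferons made by immune cells with a large set of antiviral genes.

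The arrays carried the transcripts of liver. All 12 measured hepatocyte markers lay between 6.56 and 13.82 on the log2 scale, whereas 7 exocrine pancreas markers stayed at or below 5.925 and 3 adipocyte markers at or below 3.73. Xist, which is transcribed from the inactive X chromosome, lay between 11.10 and 11.61 on all 8 arrays. The Y-linked Kdm5d and Uty lay at or below 3.545 and 3.417, so all 8 livers read as female. No 2 arrays held identical values.

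Before genotypes were compared, 3 of the 8 arrays stood apart. WT replicate 1 had 1696 probe sets more than 1 log2 unit above and 1579 more than 1 unit below the median of its group, against 147 above and 97 below in WT replicate 2. WT replicate 3 had 87 above and 488 below. CAG42 replicate 4 had 349 above and 156 below, against at most 75 above and 108 below in the other CAG42 mice. The first principal component carried 47.5% of the variance and separated WT replicate 1 (score 81.84) from WT replicate 3 (score -55.98), with all 4 CAG42 livers between them. The second component carried 15.01% and set CAG42 replicate 4 (score -46.53) apart.

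**Figure D1:**
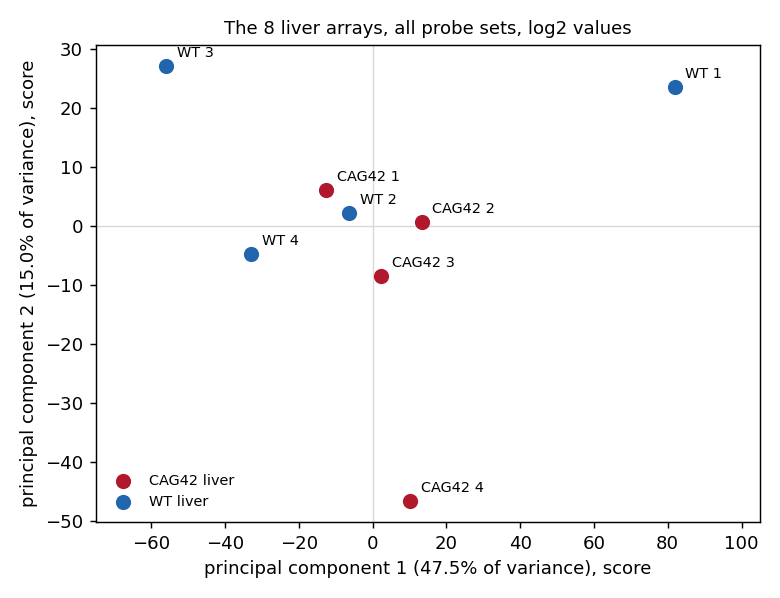
Scores of the 8 liver arrays on the first and second principal component of all probe sets (log2 values); each point is a mouse, red for CAG42 liver and blue for WT liver. The WT livers span scores of -55.98 to 81.84 on the first component, and CAG42 replicate 4 lies alone at -46.53 on the second.

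The median SD between mice was 0.149 in CAG42 livers and 0.223 in WT livers, and 0.149 in WT livers without replicate 1. In the brain groups of the same series it lay between 0.115 and 0.131. On WT replicate 1 the control probe set at the 3′ end of pyruvate carboxylase (Pcx) exceeded that at the 5′ end by 4.14 log2 units, whereas the difference lay between 5.43 and 5.996 on the other 7 arrays. The same difference of actin (Actb) was 1.09 on WT replicate 1, against 0.806 to 0.912 on the others, and that of Gapdh was 0.124, against 0.1555 to 0.305. Correlations between arrays of a group ran from 0.986 to 0.994 among CAG42 livers and from 0.954 to 0.989 among WT livers. Because the liver arrays varied more than the brain arrays, the liver comparison took its error from the 8 livers only, and a fit that shared the spread over the 3 tissues served as a second reading.

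No transcript passed the test in liver. With the spread of the liver arrays, limma called 0 of 45037 probe sets (0.0%) at an adjusted p under 0.05, and the lowest adjusted p was 0.268. At an unadjusted p under 0.05 there were 639 probe sets with a higher mean in CAG42 livers (1.42%) and 873 with a lower mean (1.94%), together 3.36%. The 4 CAG42 values lay entirely above the 4 WT values in 428 probe sets (0.95%) and entirely below them in 816 (1.81%). Without WT replicate 1, limma called 1 probe set (Kdm2b), and 6810 (15.1%) had an unadjusted p under 0.05. Array weights, which gave WT replicate 1 a weight of 0.204, called 3 (Kdm2b, Aldh2 and the unnamed probe set 1459861_PM_s_at).

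With the spread shared over cerebellum, brainstem and liver, 66 probe sets were called (0.147%), 42 higher (0.0933%) and 24 lower (0.0533%) in CAG42 livers. They belonged to 47 named genes, and in 57 of the 66 the genotypes did not overlap, against 2.76% of all probe sets. These calls rest on a spread that the brain arrays set below that of the liver arrays. The words "higher" and "lower" below therefore give the direction of the means, and each gene is shown mouse by mouse.

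The gene with the lowest p was Aldh2, which encodes the mitochondrial aldehyde dehydrogenase that clears acetaldehyde. Its probe set 1457155_PM_at read 4.34, 4.53, 4.74 and 4.48 in CAG42 livers and 6.06, 5.70, 5.69 and 5.57 in WT livers. The highest CAG42 value lay 0.833 below the lowest WT value, and the mean was 2.35-fold lower (log2 difference -1.24, SE 0.13, limma adjusted p = 0.268). The difference was seen at this probe set alone: the bright probe set 1448143_PM_at averaged 11.77 in CAG42 and 11.95 in WT livers (log2 difference -0.17, unadjusted p = 0.134), and 1437410_PM_at differed by -0.13 (unadjusted p = 0.437). At 1457155_PM_at the CAG42 mean was also below the WT mean in cerebellum (-0.61) and brainstem (-1.25).

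Kdm2b, which encodes a histone H3 demethylase that recruits a Polycomb complex to CpG islands, was represented by a single probe set. It read 7.30, 7.42, 7.52 and 7.09 in CAG42 livers, against 6.37, 5.90, 5.596 and 5.41 in WT livers. The CAG42 mean was 2.86-fold higher (log2 difference 1.52, SE 0.20, limma adjusted p = 0.488), and it was 1.38 to 1.70 higher when each liver was left out in turn. In cerebellum and brainstem the differences were -0.14 and -0.03. The difference between the liver effect and the mean brain effect was 1.601 and passed the limma test of all 24 arrays (adjusted p = 7.14e-05). That test shares the spread over the tissues and treats the 24 arrays as independent. The probe set 1459861_PM_s_at, which the annotation pairs with no gene, gave the same picture at a larger size, and it was singled out after its values were seen. It read 7.07, 7.62, 7.65 and 6.74 in CAG42 livers and 5.56, 5.11, 4.21 and 4.33 in WT livers, 5.53-fold higher in CAG42 (limma adjusted p = 0.488), with a difference of -0.09 in cerebellum and -0.08 in brainstem.

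Several of these genes are neighbours of Atxn2 on mouse chromosome 5. In the GRCm38.p6 annotation 3 protein-coding genes lie between Aldh2 and Atxn2, 17 between Oas1g and Atxn2 and 23 between Kdm2b and Atxn2. For genes this close to the knock-in site, the expanded repeat and any sequence of the stem cell strain that remained beside it cannot be told apart in this design. Adam1a, which encodes a sperm surface metalloprotease and lies 5 protein-coding genes away, was near the lower end of the array on both probe sets annotated to it here. Probe set 1427790_PM_at read 3.995, 3.98, 3.44 and 3.16 in CAG42 livers and 4.39, 4.28, 3.94 and 3.97 in WT livers (log2 difference -0.50, unadjusted p = 0.0362).

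The 25 genes with the lowest p all had CAG42 and WT values that did not overlap, and all 25 kept an unadjusted p under 0.05 when any single liver was left out. Because they were chosen for the lowest p in the same 8 arrays, both counts follow largely from the choice and are no further test. Of all genes, 1.14% lay entirely higher and 1.56% entirely lower in CAG42 livers, together 2.7%. Among the 25, 11 were higher and 14 lower in CAG42 livers.

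**Figure D2:**
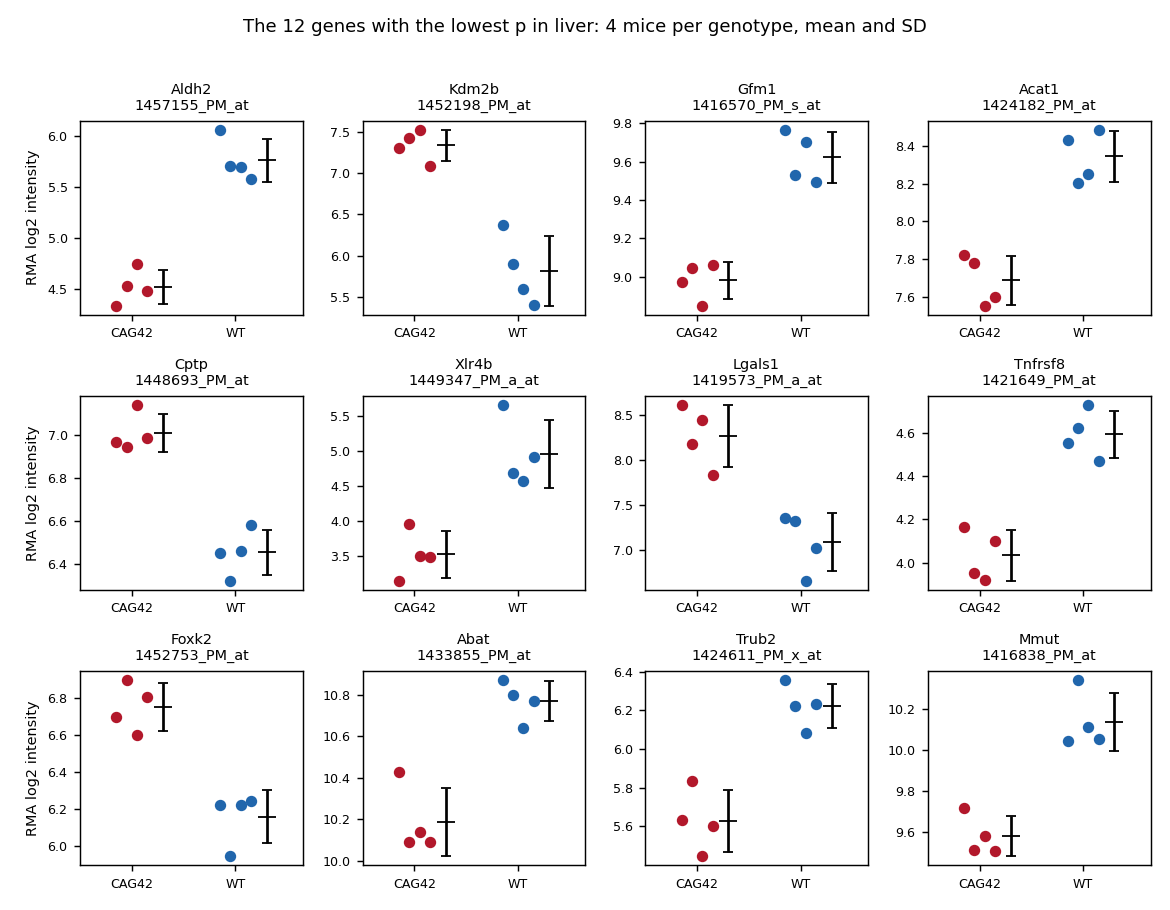
RMA log2 intensity of the 12 genes with the lowest p, each point a mouse (CAG42 red, left; WT blue, right), with the mean and SD of 4 mice beside the points; the axes do not start at 0. In each of these genes no CAG42 value reaches the range of the WT values, for example 4.34 to 4.74 against 5.57 to 6.06 for Aldh2.

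Lgals1 encodes galectin-1, a secreted lectin that binds cell surface sugars. It read 8.62, 8.18, 8.45 and 7.83 in CAG42 livers and 7.35, 7.32, 6.65 and 7.02 in WT livers, 2.27-fold higher in CAG42 (SE 0.21 on the log2 scale, limma adjusted p = 1.0, shared-spread adjusted p = 0.00295). The probe set 1455439_PM_a_at, which the annotation table used here gives no gene and the paper lists under Lgals1, read 9.18, 8.67, 8.97 and 8.29 in CAG42 livers and 7.91, 8.003, 7.19 and 7.62 in WT livers. The paper reports that quantitative PCR in other animals did not reproduce its array result for Lgals1. All 8 measured genes of the galectin list had a mean above WT (median log2 difference 0.23, against 0.01 over all genes), but the differences were small outside Lgals1 and Lgals3bp, which encodes a galectin-binding glycoprotein (0.79, unadjusted p = 0.0128). The 2 of 8 with an unadjusted p under 0.05 and a higher mean stand against 1.9% of all genes.

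Cptp, which encodes a transfer protein for ceramide-1-phosphate, read 6.97, 6.94, 7.14 and 6.98 in CAG42 livers and 6.46, 6.32, 6.46 and 6.58 in WT livers (log2 difference 0.55, SE 0.10). Foxk2, a forkhead transcription factor, was higher by 0.59 and 0.63 on the probe sets 1452753_PM_at and 1428353_PM_at, while its other 3 probe sets differed by 0.33, -0.06 and -0.32. Dleu2, the long noncoding host gene of the miR-15a and miR-16-1 microRNAs, was higher on both probe sets that lay above 6 (0.81 and 0.80), and a dimmer probe set at 3.37 differed by -0.08.

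Xlr4b, an X-linked imprinted gene of the lymphocyte-regulated family, gave the lowest levels relative to WT in this group. It read 3.14, 3.96, 3.495 and 3.48 in CAG42 livers and 5.66, 4.69, 4.57 and 4.92 in WT livers, 2.72-fold lower in CAG42 (limma adjusted p = 1.0). Tnfrsf8, which encodes the lymphocyte receptor CD30, differed by -0.56, but at levels of 3.92 to 4.73 it was near the lower end of the array. Bmf, a pro-apoptotic BCL2-family gene, differed by -0.83 on the probe set 1454880_PM_s_at and by 0.07 and -0.19 on its other probe sets. The low p of Hspa8, a constitutive heat shock protein gene, likewise rested on the dim probe set 1431182_PM_at (0.84), since the 3 brighter probe sets differed by 0.05, 0.03 and 0.00. Probe sets of a gene can lie on different transcript forms, and which forms these probe sets read was not examined.

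Interferon-response genes had the largest median difference of the 41 gene lists. Of 30 measured genes of a type I interferon list, 27 had a higher mean in CAG42 livers, against 52.3% of all genes, and 17 had an unadjusted p under 0.05 in that direction, against 1.9% of all genes, and none in the other. The median log2 difference over the list was 0.57, against 0.01 over all genes. Of the 30, 6 did not overlap between the genotypes, all higher, and 4 were called with the shared spread (Oas1g, Usp18, Ifi27 and Irf7), against 1.14% and 0.152% of all genes. The list was chosen with earlier results of these data known, and genes of a list that respond to the same signal are not independent, so the counts describe these 8 mice.

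Oas1g, a 2′-5′ oligoadenylate synthetase that activates an antiviral ribonuclease, read 6.81, 7.95, 9.82 and 8.64 in CAG42 livers and 5.64, 5.99, 5.17 and 6.18 in WT livers. The CAG42 mean was 5.89-fold higher (log2 difference 2.56, SE 0.55, shared-spread adjusted p = 0.0048), and the CAG42 mice spread over 3.01 log2 units among themselves. Usp18, the protease that removes the ubiquitin-like ISG15 from proteins, read 6.30, 7.22, 8.28 and 7.50 in CAG42 livers and 5.34, 5.48, 3.77 and 5.59 in WT livers. The lowest CAG42 value lay 0.708 above the highest WT value, and WT replicate 3 was the lowest of all.

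Ifi27, a small interferon-induced membrane protein gene, was higher on both of its probe sets. The paper lists both probe sets under Ifi27l1. It reports that quantitative PCR in other animals did not reproduce its array result for that gene. Probe set 1454757_PM_s_at read 9.77, 10.68, 11.39 and 10.74 in CAG42 livers and 8.72, 9.27, 8.27 and 9.59 in WT livers, 3.21-fold higher in CAG42 (SE 0.37, shared-spread adjusted p = 0.00411), and 1452956_PM_a_at was 3.27-fold higher. Irf7, the transcription factor that amplifies interferon production, overlapped by a single pair of mice, with 6.73, 7.70, 8.85 and 8.40 in CAG42 livers and 6.21, 6.30, 4.72 and 6.96 in WT livers. The same CAG42 order, replicate 1 lowest and replicate 3 highest, was found for Oas1g, Usp18, Ifi27 and Irf7.

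The promoters of the interferon genes were searched for the letters of the interferon-stimulated response element, a sequence found before many interferon-induced genes. The motif searched was GAAANNGAAA on either strand, overlapping matches included, in the 250 bases before the RefSeq gene start (GRCm38.p6). It was present in 3.46% of all 27025 genes with a window and in 7 of the 18 list genes with a window. Among the list genes with a window, 10 had an unadjusted p under 0.05 and 6 of these held the motif, and 1 of the other 8 did. Usp18 and Ifi27 had no window, and the window of Irf7 held no match. The list was made of interferon-response genes, so a share above that of all genes follows from the choice. The split by p was not tested. The 5 windows shown are those whose matches lie in the last 160 bases before the start, because they pair a list gene that was higher in CAG42 livers with a match. The stretches are chr5:120887614-120887773 (minus strand, Oas1g), chr19:34640729-34640888 (plus strand, Ifit1), chr19:34583369-34583528 (plus strand, Ifit3), chr12:26456453-26456612 (minus strand, Rsad2) and chr7:104465194-104465353 (minus strand, Trim30a), printed 5′ to 3′ with the matches in capitals.
Oas1g: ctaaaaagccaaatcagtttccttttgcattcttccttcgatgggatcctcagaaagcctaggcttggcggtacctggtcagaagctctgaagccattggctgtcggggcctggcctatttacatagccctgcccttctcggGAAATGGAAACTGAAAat
Ifit1: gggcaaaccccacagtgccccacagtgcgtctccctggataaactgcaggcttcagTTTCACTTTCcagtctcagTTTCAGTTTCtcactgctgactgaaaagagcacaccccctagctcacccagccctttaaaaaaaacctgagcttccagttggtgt
Ifit3: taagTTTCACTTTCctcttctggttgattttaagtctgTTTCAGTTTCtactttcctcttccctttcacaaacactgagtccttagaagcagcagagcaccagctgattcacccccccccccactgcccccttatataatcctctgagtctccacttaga
Rsad2: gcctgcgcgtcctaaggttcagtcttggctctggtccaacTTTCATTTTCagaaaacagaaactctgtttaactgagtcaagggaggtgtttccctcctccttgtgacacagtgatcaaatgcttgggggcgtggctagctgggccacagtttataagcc
Trim30a: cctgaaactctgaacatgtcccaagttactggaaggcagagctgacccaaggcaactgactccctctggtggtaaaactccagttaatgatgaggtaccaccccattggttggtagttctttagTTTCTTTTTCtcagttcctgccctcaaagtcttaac
In Oas1g 2 matches overlap and end 8 and 2 bases before the start, whereas in Ifit1 they end 94 and 75 bases before it. Ifit1, which encodes a protein that binds viral RNA lacking host cap methylation, read 6.42, 6.89, 7.96 and 7.42 in CAG42 livers and 5.52, 5.67, 4.57 and 6.45 in WT livers (log2 difference 1.62, unadjusted p = 0.00376). Its neighbour Ifit3 differed by 1.18 (unadjusted p = 0.0237), Rsad2, the antiviral enzyme viperin, by 0.98 (0.0405) and Trim30a by 1.02 (0.00942). A match is a description of the sequence, and binding was not measured.

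The order of the mice was shared over the list. Mean list values, each gene taken relative to its mean over the 8 livers, were -0.17, 0.24, 0.77 and 0.74 in CAG42 replicates 1 to 4 and -0.37, -0.25, -0.97 and 0.02 in WT replicates 1 to 4. The lowest CAG42 mouse therefore lay below the highest WT mouse, and the low value of WT replicate 3 carried part of the difference: without it, 11 list genes had an unadjusted p under 0.05 and a higher mean, against 1.42% of all genes, and the median difference was 0.41. Without CAG42 replicate 4, which had the highest macrophage and neutrophil markers, 8 list genes were higher at that p, against 1.53% of all genes (median 0.46). Without CAG42 replicate 3 there were 9, against 1.35% (median 0.50). With WT replicates 1 and 3 both left out, the median was 0.38. Not every interferon gene had a higher mean. Mx1 read 3.57, 3.92, 4.08 and 3.67 in CAG42 livers and 3.33, 4.04, 4.45 and 4.29 in WT livers, near the lower end of the array, which limits what it can show. Cmpk2 (-0.09) and Oas3 (-0.11) also showed no higher mean in CAG42 livers.

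**Figure D3:**
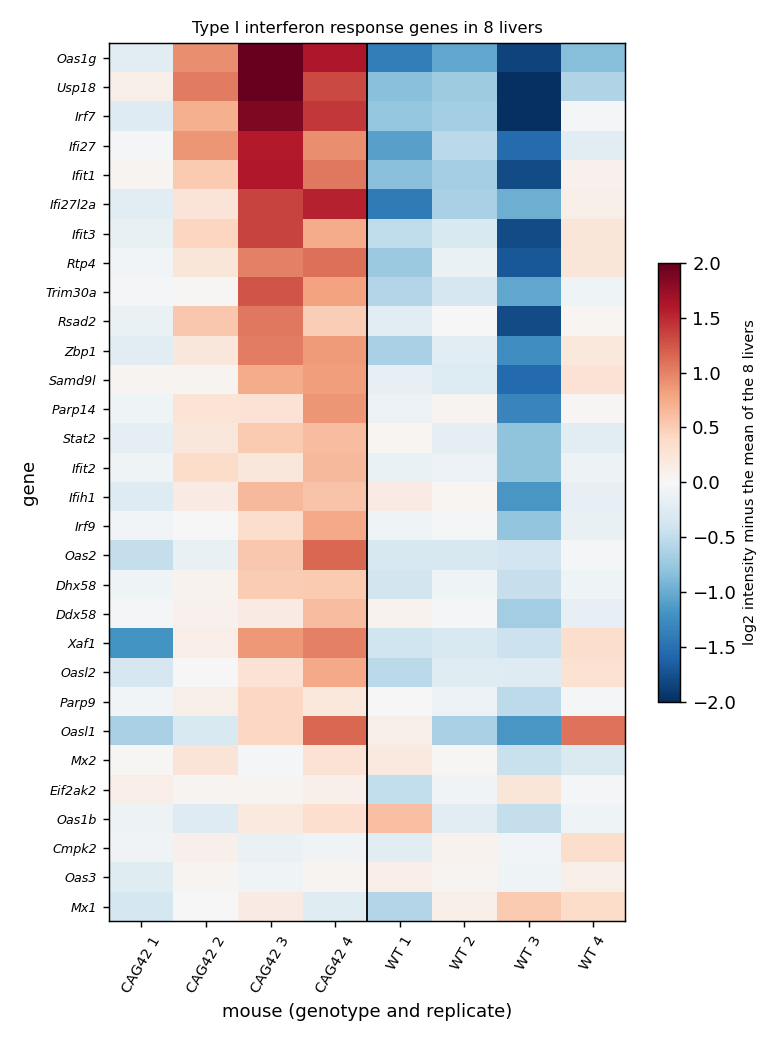
Type I interferon response genes (rows, ordered by log2 difference) in the 4 CAG42 livers (left) and 4 WT livers (right); colour gives log2 intensity minus the mean of the 8 livers, with the colour scale ending at 2 in either direction. CAG42 replicates 3 and 4 are red and WT replicate 3 blue over most rows, while CAG42 replicate 1 and WT replicate 4 are near 0.

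Genes of the interferon-gamma response and of antigen presentation differed less. Of 20 measured, 13 had a higher mean in CAG42 livers, against 52.3% of all genes, and 3 also had an unadjusted p under 0.05, against 1.9%. None was called or free of overlap, and the median difference was 0.17. Without WT replicate 3 the median was -0.07. The count of 3 became 0 without CAG42 replicate 4 (1.53% of all genes) and 1 without CAG42 replicate 3 (1.35%), WT replicate 1 (9.72%) or WT replicate 3 (1.42%). The 3 were Irgm1, an immunity-related GTPase (0.68), Gbp3, a guanylate-binding protein (0.96), and Psme1, a proteasome activator subunit (0.32). H2-Aa, a class II gene, overlapped between the genotypes and read 9.29, 9.36, 8.96 and 9.25 in CAG42 livers and 8.90, 10.09, 8.87 and 9.95 in WT livers. Its WT values split into 2 high mice (replicates 2 and 4) and 2 low mice (replicates 1 and 3), with the CAG42 mice between.

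Several mitochondrial enzymes of amino acid breakdown had a lower mean in CAG42 livers. Acat1, the thiolase that acts in isoleucine breakdown and on ketone bodies, was lower on all of its 3 probe sets. The paper reports that quantitative PCR in other animals did not reproduce its array result for Acat1. Probe set 1424183_PM_at read 10.92, 11.05, 10.87 and 10.73 in CAG42 livers and 11.62, 11.36, 11.44 and 11.46 in WT livers (log2 difference -0.58, SE 0.10, 1.49-fold lower in CAG42). The other probe sets differed by -0.66 and -0.51, and none of the 3 overlapped between the genotypes (limma adjusted p = 1.0 for each, shared-spread adjusted p = 0.00158 to 0.00253). Of 4 measured genes of a ketone body list, Acat1 alone had an unadjusted p under 0.05, against 1.69% of all genes lower at that p. In this list 2 had a higher and 2 a lower mean (median log2 difference -0.03). In the brain regions the Acat1 differences lay between -0.24 and -0.06.

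Of 16 measured genes of branched-chain amino acid breakdown, all 16 had a lower mean in CAG42 livers, against 47.7% of all genes, with a median log2 difference of -0.30. In this list 7 genes had an unadjusted p under 0.05 and 5 did not overlap, against 1.69% and 1.56% of all genes. Mccc1, a subunit of the carboxylase in leucine breakdown, read 8.37, 8.16, 8.35 and 7.78 in CAG42 livers and 9.01, 8.45, 8.90 and 8.68 in WT livers (log2 difference -0.59, unadjusted p = 0.00606, shared-spread adjusted p = 0.0254). Acadsb, the short branched-chain acyl-CoA dehydrogenase, read 9.03, 8.71, 8.78 and 8.76 in CAG42 livers and 9.17, 9.18, 9.12 and 9.11 in WT livers. Dbt, the transacylase core of the branched-chain ketoacid dehydrogenase, differed by -0.36 (unadjusted p = 0.0141), and Pcca, a propionyl-CoA carboxylase subunit, by -0.35 (0.027).

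Mmut, the methylmalonyl-CoA mutase that passes propionate carbon to the citric acid cycle, was lower on its 3 probe sets by 0.56, 0.44 and 0.30. Its probe set 1416838_PM_at read 9.72, 9.51, 9.58 and 9.51 in CAG42 livers, against 10.04, 10.34, 10.11 and 10.05 in WT livers. WT replicate 1 weighed on the whole list. It had the highest value of the 8 livers in 13 of the 16 genes, and without it the median difference was -0.16, with 6 genes lower at an unadjusted p under 0.05, against 7.25% of all genes. Without CAG42 replicate 4 the median was -0.21 and 3 genes were lower at an unadjusted p under 0.05, against 1.36% of all genes, and there were 4 without CAG42 replicate 2 or CAG42 replicate 3, against 1.11% each. Mccc1 was the only member called with the shared spread, against 0.0643% of all genes.

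**Figure D4:**
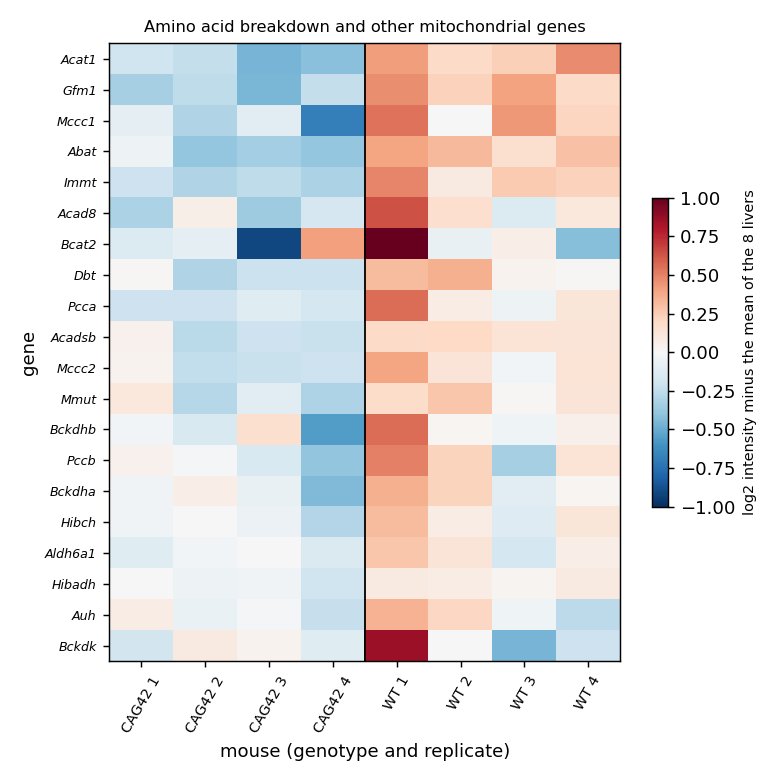
Genes of branched-chain amino acid breakdown with Acat1, Abat, Gfm1 and Immt (rows, ordered by log2 difference) in the 4 CAG42 livers (left) and 4 WT livers (right); colour gives log2 intensity minus the mean of the 8 livers, with the colour scale ending at 1 in either direction. Blue shades prevail on the CAG42 side, and WT replicate 1 is the reddest column.

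The breakdown of other amino acids held fewer genes with a low p. Gldc, the glycine decarboxylase, read 7.61, 7.82, 7.25 and 7.97 in CAG42 livers and 8.90, 8.56, 8.38 and 8.08 in WT livers, 1.76-fold lower in CAG42 (shared-spread adjusted p = 0.00836). Dmgdh, which demethylates dimethylglycine, and Cth, which makes cysteine from cystathionine, differed by -0.29 and -0.38. In all, 3 of 22 genes had an unadjusted p under 0.05, all lower, against 1.69% of all genes, and the median difference was -0.14. The count was 1 without WT replicate 1 (7.25% of all genes), CAG42 replicate 4 (1.36%), CAG42 replicate 2 or CAG42 replicate 3 (1.11% each). Abat, the transaminase of GABA and of valine and pyrimidine products, read 10.43, 10.09, 10.14 and 10.09 in CAG42 livers and 10.87, 10.80, 10.64 and 10.77 in WT livers (log2 difference -0.59, shared-spread adjusted p = 0.00295). Of 8 urea cycle genes, none had an unadjusted p under 0.05, against 3.59% of all genes in either direction.

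Other mitochondrial genes with a low p were Gfm1 and Immt. Gfm1, the elongation factor of mitochondrial translation, read 8.97, 9.04, 8.85 and 9.06 in CAG42 livers and 9.77, 9.53, 9.70 and 9.49 in WT livers (log2 difference -0.64, shared-spread adjusted p = 0.000726). Immt, the mitofilin that holds the junctions of the inner membrane cristae, read 8.27, 8.18, 8.23 and 8.17 in CAG42 livers and 8.97, 8.57, 8.74 and 8.71 in WT livers. The CAG42 values lay within 0.108 of each other, below the lowest WT value by 0.301. Gfm1 was the only member of a 21-gene mitochondrial translation list with an unadjusted p under 0.05, against 1.69% of all genes lower at that p.

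Of 21 respiratory chain genes, 18 had a lower mean in CAG42 livers, by a median of 0.09, and 5 did not overlap, against 1.56% of all genes entirely lower. These were Ndufs1 and Ndufv1, which carry iron-sulfur clusters or flavin in complex I, Ndufa10, Sdha of complex II and Uqcrfs1 of complex III. Their differences ran from -0.27 to -0.19. At an unadjusted p under 0.05, 3 of the 21 were lower, against 1.69% of all genes. The count was 1 without WT replicate 1 (7.25% of all genes), WT replicate 2 (1.42%), CAG42 replicate 3 (1.11%) or CAG42 replicate 4 (1.36%). Ndufab1 illustrates the limit of single probe sets here, since the dim probe set 1453565_PM_at differed by -0.46 and the bright 1428159_PM_s_at by 0.03.

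Fatty acid oxidation genes split. Cpt2, the inner-membrane carnitine palmitoyltransferase, read 9.71, 9.87, 9.69 and 9.51 in CAG42 livers and 10.23, 9.91, 10.08 and 10.19 in WT livers, and Acadm, the medium-chain acyl-CoA dehydrogenase, read 11.56, 11.60, 11.66 and 11.60 in CAG42 livers and 12.02, 11.77, 11.85 and 12.00 in WT livers. With Ehhadh, the peroxisomal bifunctional enzyme, 3 of 20 genes did not overlap and had an unadjusted p under 0.05, all lower, against 1.56% and 1.69% of all genes. The median over the 20 genes was -0.13, and 0.01 without CAG42 replicate 4. Genes of fatty acid and triglyceride synthesis (21) and of cholesterol synthesis (16) held none with an unadjusted p under 0.05, against 3.59% of all genes in either direction.

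Cyp7a1, the hydroxylase that limits the rate at which cholesterol becomes bile acid, was higher on both probe sets. Probe set 1438743_PM_at read 11.82, 11.55, 11.55 and 11.46 in CAG42 livers and 10.66, 10.50, 11.27 and 10.21 in WT livers, 1.91-fold higher in CAG42 (SE 0.21, limma adjusted p = 1.0, shared-spread adjusted p = 0.00438). The CAG42 mice lay within 0.367 of each other and the WT mice within 1.06. Cyp7a1 was the only 1 of 18 bile acid genes with an unadjusted p under 0.05, against 1.9% of all genes higher at that p. Sult1e1, the sulfotransferase that inactivates estrogens, was 3.56-fold lower in CAG42 livers, with 6.73, 6.89, 7.77 and 6.56 in CAG42 and 9.61, 8.77, 9.25 and 7.65 in WT livers, and the genotypes overlapped by a single pair. Hsd3b3, a 3-beta-hydroxysteroid dehydrogenase, was higher on both probe sets, by 0.70 and 0.52, with no overlap.

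Immune and stromal markers varied between mice. Cd163, the hemoglobin scavenger receptor of macrophages, read 5.09, 4.46, 5.66 and 5.44 in CAG42 livers and 6.10, 6.79, 6.33 and 6.22 in WT livers, 2.29-fold lower in CAG42 (SE 0.26 on the log2 scale, shared-spread adjusted p = 0.00295). The other 13 of 14 Kupffer cell and macrophage markers had no unadjusted p under 0.05, and their CAG42 and WT values overlapped: Clec4f, which is specific to Kupffer cells, read 8.50, 8.84, 9.07 and 9.97 in CAG42 livers and 8.40, 9.02, 8.34 and 9.38 in WT livers. Of all genes, 1.69% had an unadjusted p under 0.05 and a lower mean. In whole tissue, fewer cells of a type and less RNA per cell cannot be told apart. Cd209f, a C-type lectin gene related to the macrophage receptor SIGN family, was also lower (-0.44), at levels of 3.62 to 4.22.

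CAG42 replicate 4 had the highest mean of the macrophage list and of the neutrophil and monocyte list, but not of the B cell or T and NK cell lists. Its mean relative value was 0.88 for the macrophage list, against -0.44 to -0.10 in the other CAG42 mice and -0.28 to 0.42 in WT mice, and 0.69 for the neutrophil and monocyte list, against at most 0.12 elsewhere. Nlrp12, an inhibitory receptor of neutrophils and other myeloid cells, did not follow it, with 7.001, 6.46, 6.68 and 6.26 in CAG42 livers and 3.31, 5.58, 4.54 and 5.14 in WT livers (log2 difference 1.95, shared-spread adjusted p = 0.00295). All 12 endothelial markers had a higher mean in CAG42 livers, against 52.3% of all genes, by a median of 0.21. Clec4g and Fcgr2b of the liver sinusoids had an unadjusted p under 0.05 (0.41 and 0.28), 2 of 12 against 1.9% of all genes. That count was 0 without CAG42 replicate 1 (1.81% of all genes), 2 (1.42%) or 3 (1.35%). It was 1 without WT replicate 1 (9.72%), 3 (1.42%) or 4 (1.53%). It was 3 without CAG42 replicate 4 (1.53%) or WT replicate 2 (1.74%). The lists for B cells, T and NK cells, bile duct cells and red cells held no gene with an unadjusted p under 0.05, against 3.59% of all genes. Among 13 stellate cell and fibrosis genes Col1a1 differed by -0.32 (unadjusted p = 0.022). It was the only 1 with an unadjusted p under 0.05, against 1.69% of all genes lower. The part of cell composition in the interferon and mitochondrial differences was not tested.

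**Figure D5:**
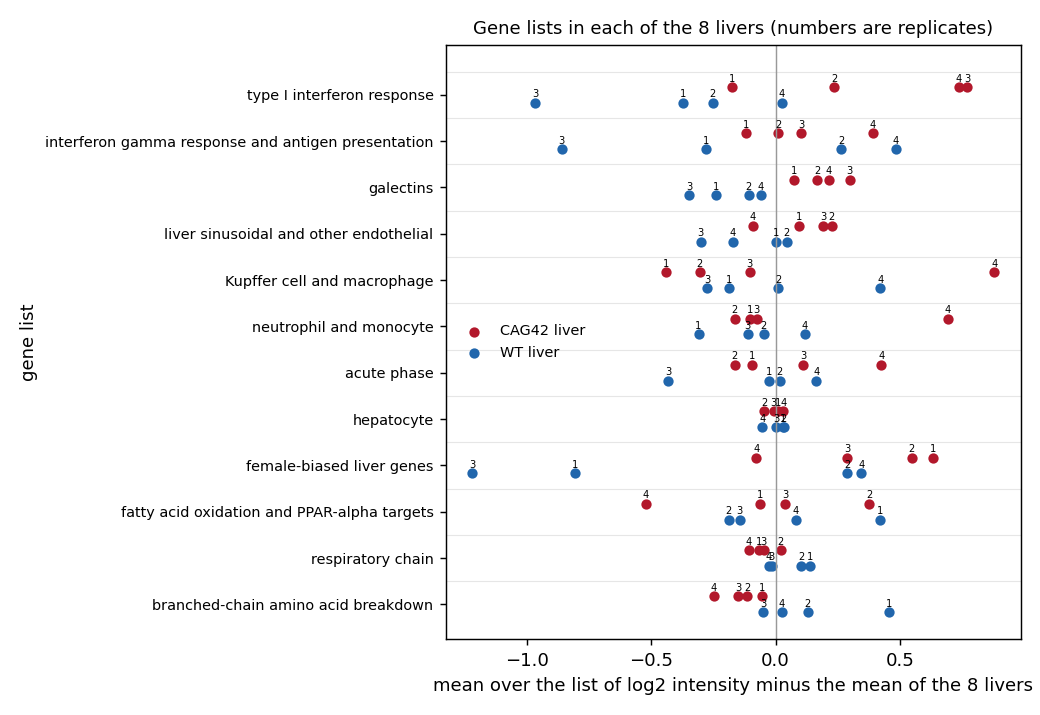
Mean over each gene list of log2 intensity minus the mean of the 8 livers, 1 point per mouse, with CAG42 livers (red) above WT livers (blue) in each row and the replicate number beside each point. Of all 41 lists, 2 had means that did not overlap between the genotypes, and both are among the 12 shown: the galectins and, narrowly, branched-chain amino acid breakdown. Of single genes, 2.7% did not overlap. The type I interferon list runs from -0.97 in WT replicate 3 to 0.77 in CAG42 replicate 3.

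Among stress and signalling lists, that of the unfolded protein response held genes with a low p. Of its 16 genes, 2 were higher and 1 lower at an unadjusted p under 0.05, against 1.9% and 1.69% of all genes. The counts were 2 and 0 without CAG42 replicate 4 (1.53% and 1.36% of all genes). They were 1 and 1 without WT replicate 3 (1.42% and 1.95%), and 2 and 1 without WT replicate 1 (9.72% and 7.25%). Atf3 and Dnajb9, a transcription factor and a chaperone cofactor, differed by 0.41 and 0.29, and Asns, the asparagine synthetase, by -1.39. Asns read 4.09, 4.38, 4.35 and 3.71 in CAG42 livers and 6.30, 6.48, 5.38 and 3.92 in WT livers, so that WT replicate 4 lay among the CAG42 values. The acute phase (23 genes), heat shock (9), p53 target (10), proliferation (15), circadian clock (16), immediate early (11) and cytosolic ribosomal protein (18) lists held no gene with an unadjusted p under 0.05. Of all genes, 3.59% had such a p in either direction.

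Atxn2 was measured by 5 probe sets, and none was called in liver. Probe set 1438143_PM_s_at read 8.54, 8.49, 8.76 and 8.42 in CAG42 livers and 8.97, 8.70, 8.29 and 8.48 in WT livers (log2 difference -0.06, SE 0.15, unadjusted p = 0.725). Probe set 1438144_PM_x_at had the lowest p (-0.32, SE 0.13, unadjusted p = 0.039) with 5.91, 5.70, 5.93 and 5.64 in CAG42 livers and 5.89, 5.997, 6.39 and 6.165 in WT livers, and the other 4 differed by -0.16 to 0.01. Atxn2 is transcribed in both genotypes, so its level does not check the genotype labels. Pabpc1, the partner of ATXN2, differed by 0.10 and 0.13 on its probe sets (unadjusted p = 0.329 and 0.253). None of 19 genes of ATXN2 partners and stress granules had an unadjusted p under 0.05, against 3.59% of all genes in either direction.

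Fbxw8, a subunit of a cullin ubiquitin ligase on chromosome 5, was not called in liver on any of its 3 probe sets. The brightest, 1436732_PM_s_at, differed by 0.31 (unadjusted p = 0.229), and by 0.148 to 0.499 over single omissions. The dim 1458413_PM_at differed by 0.03 (unadjusted p = 0.842). Probe set 1426944_PM_at read 5.48, 5.62, 5.31 and 5.26 in CAG42 livers and 6.14, 5.07, 4.62 and 5.08 in WT livers (log2 difference 0.19, unadjusted p = 0.511). The other 3 WT mice lay below all CAG42 mice and WT replicate 1 above them, and without it the difference was 0.49. Without WT replicate 3 the difference was -0.01. In cerebellum and brainstem the same probe set differed by 1.34 and 0.84.

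The liver difference was set against the mean difference of cerebellum and brainstem in the fit of all 24 arrays, to ask which genotype effects were particular to a tissue. That fit shared the spread over tissues and held no term for the mouse, although the tissues may come from the same mice. The test called 5 of 45037 probe sets (0.0111%): Kdm2b, 1459861_PM_s_at, Bcl11a, 1447526_PM_at and 1441721_PM_at. Bcl11a, a zinc-finger repressor, read 3.01, 2.91, 2.80 and 2.81 in CAG42 livers and 3.19, 3.18, 3.40 and 3.20 in WT livers, all near the lower end of the array. Its differences were -0.36 in liver, 0.39 in cerebellum and 0.02 in brainstem. For 1447526_PM_at and 1441721_PM_at the larger difference lay in brain, with -1.71 and -0.63 in cerebellum and -1.56 and -2.25 in brainstem, against -0.46 and -0.27 in liver. Oas1g, Usp18, Ifi27, Acat1 and Lgals1 were not among the 5, so their effects were not shown to differ between liver and brain.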

How the data were processed

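Total liver RNA of 4 CAG42 and 4 WT mice was hybridised to Affymetrix mouse arrays, 1 array per mouse. The deposited values are log2 intensities, which the authors made with RMA in R 2.7.0 (submitters' processing notes), a method that subtracts background, quantile-normalizes and summarises probes; background subtraction and quantile normalization bear most on dim probe sets and on arrays that stand apart. The genome build was not given in the sources used here, and no columns of the authors' own comparisons were used. Of 45141 probe sets, 104 controls were left out and 45037 tested. Platform annotation updated through RefSeq symbols gave 28898 probe sets 1 gene, 551 several and 15588 none (17097 genes); a gene in a list was read by its brightest probe set. The number of arrays limits the precision.

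Genotypes were compared with limma 3.58.1 (lmFit, eBayes; R 4.3.3) and Benjamini-Hochberg adjustment over all tested probe sets, with calls at an adjusted p under 0.05. The main comparison used the 8 liver arrays, and the second used all 24 with 1 mean per tissue and genotype. The paper gives 4 old mice per genotype for its 3 tissues, so tissues may share mice. The fit of all 24 held no term for the mouse. Single probe sets were also tested by exact permutation, two-sided. P-values of the liver fit set the genotype difference against the spread between these 8 mice. Those of the fits of all 24 arrays use a spread pooled over the tissues and treat the arrays as independent. The fits were tested on simulated data. Python 3.11.15 and matplotlib 3.10.9 drew the figures.

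Named genes were the 25 with the lowest liver p, the genes the study names for its arrays with Atxn2 and Pabpc1, up to 15 per direction of largest fold change among shared-spread calls without overlap, the 4 lowest-p members of each of 41 gene lists, and the 8 genes farthest from the group median per array and direction; further list members were named after their values were seen. Members and lists were chosen with earlier results of these data known. Alternatives were leaving out each liver, the replicate number as a block, array weights, a filter on dim probe sets, quantile normalization within liver, a trended robust eBayes step and gene means.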

Additional observations from a re-analysis of the deposited data

Results flagged for a closer look

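In groups of 4 mice, a value was singled out when its distance to the nearest other mouse took up more of the group's range than chance allows in about 1 in 20 groups. This held for 14 of 214 groups looked at, a share not far above 1 in 20. CAG42 replicate 4 gave 5 of them. Its mean relative list value was 0.69 for neutrophil and monocyte markers, against -0.16 to -0.08 in the other CAG42 mice, 0.30 for inflammatory cytokines and chemokines, against -0.04 to -0.02, and 0.28 for p53 targets, against -0.07 to -0.02. In the same mouse Ankrd33b read 5.82, against 3.48 to 3.80 in the other CAG42 mice, and Hif3a read 3.53, against 3.38 to 3.41. CAG42 replicate 3 stood apart in immediate early genes with 0.46, against 0.03 to 0.09, and CAG42 replicate 1 in Abat with 10.43, against 10.09 to 10.14.

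WT replicate 3 was low in Usp18 (3.77, against 5.345 to 5.589 in the other WT mice), in Bmf (4.88, against 5.52 to 5.57) and in the ketone body list (-0.25, against 0.15 to 0.22). WT replicate 1 was low in the proliferation list (-0.30, against 0.02 to 0.04), and WT replicate 2 in Foxk2 (5.94, against 6.22 to 6.24). WT replicate 4 was high in the adipocyte list (0.0894, against -0.05 to -0.04) and in p53 targets (0.0621, against -0.08 to -0.06).

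The genotype effect in liver differed from that in brain for 5 probe sets in the limma fit of all 24 arrays. Liver minus brain was 1.601 for Kdm2b (adjusted p = 7.14e-05), 2.55 for 1459861_PM_s_at (adjusted p = 7.14e-05), 1.17 for 1447526_PM_at (adjusted p = 0.0021), 1.17 for 1441721_PM_at (adjusted p = 0.013) and -0.56 for Bcl11a (adjusted p = 0.0409). The median SD within a group in that fit was 0.149 in CAG42 livers and 0.223 in WT livers, and 0.115 to 0.131 in the brain groups. Without WT replicate 1 the test called 452 probe sets.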

How the results depend on the processing

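The liver comparison called 0 probe sets as reported and in each alternative except array weights (3) and leaving out WT replicate 1 (1); leaving out each liver in turn gave 0 to 1. The count at an unadjusted p under 0.05 (1512) was 5086 with array weights, 616 of 22518 with the filter on dim probe sets and 582 of 17097 gene means, both of which tested fewer features, and ran from 1029 to 6810 (without WT replicate 1) when each liver was left out. Leaving out WT replicates 1 and 3 together, chosen after seeing the data, gave 3884. With the shared spread, the 66 calls were 231 with array weights and 640 without WT replicates 1 and 3, and ran from 35 (without CAG42 replicate 3) to 2878 (without WT replicate 1) over single omissions; the cause was not tested. The liver minus brain test (5 calls) gave 6 to 452 (without WT replicate 1) over single omissions, also added after seeing the data, and 110 without WT replicates 1 and 3. Deviations of same-numbered CAG42 and WT livers correlated at -0.30, -0.02, 0.01 and 0.04, and 0 of 4 CAG42 arrays correlated best with their own number. These values showed no pairing by replicate number. They cannot exclude a pairing, for example of littermates, that left no shared deviation. With the replicate number as a block, the liver fit called 0 probe sets, the shared-spread fit 28, against 66, and the liver minus brain test 6.

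The 25 lowest-p genes kept an unadjusted p under 0.05 in each alternative, except Dnmbp (unadjusted p = 0.262) and Ndufab1 (unadjusted p = 0.793) as gene means and Cd209f, which the filter on dim probe sets left out. List members at an unadjusted p under 0.05 numbered 56 of 561, against 3.59% of all genes in either direction. Over single omissions they ran from 33 (without CAG42 replicate 3) to 77 (without WT replicate 1). Of all genes, 1.35% were higher and 1.11% lower at that p without CAG42 replicate 3. Without WT replicate 1 these shares were 9.72% and 7.25%. Among the named probe sets signs turned for 7, none of them called. Under array weights Fbxw8 1458413_PM_at was -0.0299 and Atxn2 1438143_PM_s_at, 1459363_PM_at and 1460653_PM_at were 0.0407, 0.0595 and 0.184; quantile normalization put Atxn2 1419866_PM_s_at at -0.0820. Without WT replicates 1 and 3, Adam1a 1427791_PM_a_at was 0.0166, Fbxw8 1458413_PM_at -0.0534 and Atxn2 1460653_PM_at 0.102. Over single omissions Adam1a 1427791_PM_a_at ran from -0.130 to 0.0182, Fbxw8 1426944_PM_at from -0.0101 to 0.494 and 1458413_PM_at from -0.05 to 0.10, and Atxn2 1419866_PM_s_at from -0.14 to 0.18, 1438143_PM_s_at from -0.162 to 0.0646, 1459363_PM_at from -0.330 to 0.0707 and 1460653_PM_at from -0.26 to 0.24. For dim probe sets the signal over background limits what a difference can show.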

Other observations

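Several liver genes varied widely between mice of the same genotype. Cyp2b9, a cytochrome P450 that female mouse livers express above males, read 11.25, 11.25, 11.16 and 9.77 in CAG42 livers and 3.61, 10.34, 3.25 and 11.15 in WT livers, and its relative Cyp2b13 read 10.62, 9.88, 9.65 and 7.78 in CAG42 livers and 3.44, 9.60, 2.61 and 10.78 in WT livers. WT replicates 1 and 3, the mice at the ends of the first principal component, were the low mice of both genes, and the genotypes overlapped (unadjusted limma p = 0.0585 and exact permutation p = 0.171 for Cyp2b9).

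Dct, a melanin synthesis enzyme, read 3.97, 7.26, 9.85 and 9.21 in CAG42 livers and 9.47, 3.40, 3.66 and 10.60 in WT livers. Gdpd3, a lysophospholipase D, was high in CAG42 replicates 1 and 4 (8.75 and 8.99) and low in replicates 2 and 3 (4.25 and 3.98), and in WT livers it read 4.38, 8.68, 10.27 and 8.45. Sult3a1, a sulfotransferase with female-biased expression in mouse liver, read 11.87, 11.86, 8.09 and 8.32 in CAG42 livers and 10.71, 10.52, 10.69 and 10.33 in WT livers. Dct and Gdpd3 varied within both genotypes, and Sult3a1 within CAG42 livers.

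CAG42 replicate 4 stood apart in Prtn3, a neutrophil and myeloid precursor protease, with 10.09, against 3.30 to 4.23 in the other CAG42 livers and 3.45 to 3.89 in WT livers. Lpl, the lipoprotein lipase that adult hepatocytes express little of, was also highest there, at 10.53, with 6.62, 7.31 and 7.74 in the other CAG42 livers and 6.60, 7.73, 6.225 and 8.16 in WT livers. WT replicate 1 stood apart in Klf9, a glucocorticoid-induced transcription factor gene, with 6.59, against 3.83 to 3.89 in the other WT livers and 3.81 to 4.32 in CAG42 livers.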
